A study of Mus musculus with 7 samples.

Results

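The genes described here act in G2 and M phase, when a cell condenses its chromosomes, builds a spindle, separates the sister chromatids and divides. They are a list of 40 genes of mitosis and cytokinesis, taken by name out of 23337 gene symbols in the count table. The list was chosen with earlier results of these data known. All 40 were in the table and all 40 passed the filter on low counts. Poly(A) RNA was sequenced from left ventricles dissected at E12.5. The 2 mutant embryos were Tbx5flox/flox and the 5 control embryos Tbx5+/+, and both groups carried Gt(ROSA)26Sortm1(cre/ERT2)Tyj. This allele places the tamoxifen-inducible recombinase CreERT2 in the widely expressed Rosa26 locus, and the mothers of mutants and controls alike were given tamoxifen at E11.5, so that controls share the recombinase and the drug. The recombinase is not limited to heart muscle, and the ventricle is a mixture of cell types. In such a bulk sample, fewer cells of a type and less RNA per cell cannot be told apart. No label gives a litter, a sex or a batch, and nothing says that the libraries came from separate litters, so a p-value reflects the scatter of these libraries alone, which may be partly technical.

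Entry into mitosis is driven by the kinase CDK1 bound to B-type and A-type cyclins, and is followed by the Aurora and Polo kinases that build the spindle. The spindle checkpoint holds the cell in metaphase until every kinetochore is attached. The anaphase-promoting complex (APC/C), a ubiquitin ligase, then destroys cyclin B and securin, and kinesins and a contractile ring complete cytokinesis. Transcripts of these genes are scarce in resting cells and accumulate towards mitosis. In the embryonic heart many ventricular cardiomyocytes still divide, as do endothelial, epicardial and blood cells, so that the level of these transcripts in whole tissue is commonly read as a measure of proliferation.

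The promoters of the mitosis genes shared 2 short motifs that were not used to choose them. The first is the cell cycle genes homology region (CHR), read here as TTTGAA or its complement TTCAAA, an element bound by the MuvB complexes that repress these genes in resting cells and activate them in G2. The second is the CCAAT box, read as CCAAT or its complement ATTGG, which is bound by the factor NF-Y. RefSeq promoters of build GRCm38.p6, from 250 bases before to 50 after the transcription start, were matched by symbol for 35 of the 40 genes and for 10307 of the 14691 genes tested. Ccna2, Kif20a, Aurkb, Incenp and Tpx2 had no entry in the table. Of the 35 genes, 28 (80.0%) held a CHR on either strand, against 1438 of the 10307 tested genes, 43.0% of 79 other mitotic genes, 18.2% of 44 S phase genes and 23.1% of 13 G1 genes. A CCAAT box was present in 26 (74.3%), against 42.7% of the tested genes, 64.6% of the other mitotic, 61.4% of the S phase and 53.8% of the G1 genes. Both motifs together were found in 23 (65.7%), against 5.83% of the tested and 32.9% of the other mitotic genes. The 2 motifs cannot contain each other, although matches may overlap at their ends.

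The CHR matches of the mitosis genes lay around the transcription start. Their median position was 2 bases after it over 39 matches, with quartiles at -29.5 and 17.5, whereas the 1709 matches in the tested genes had a median of 137 bases before it. Matches were counted per promoter, over 37 promoters of the 35 genes and 13157 promoters of the tested genes. Ect2 and Prc1 had more than 1 start, so that their sites recur among the matches. A CHR within 50 bases of the start was found in 26 of the 35 genes (74.3%), in 3.67% of the tested genes and in 31.6% of the other mitotic genes. The CCAAT boxes lay farther upstream, at a median of -67.5 bases over 66 matches, beside -88 bases over 7605 matches in the tested genes. Of the 35 genes, 18 (51.4%) had 2 or more, against 16.2% of the tested, 35.4% of the other mitotic and 40.9% of the S phase genes. The 7 genes with no CHR in this window were Birc5, Bub1, Ccnb1, Cenpe, Mad2l1, Nuf2 and Nusap1, and Bub1 held the related form TTCGAA instead. A match of these letters describes the sequence and does not show that a factor binds there.

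**Figure D1:**
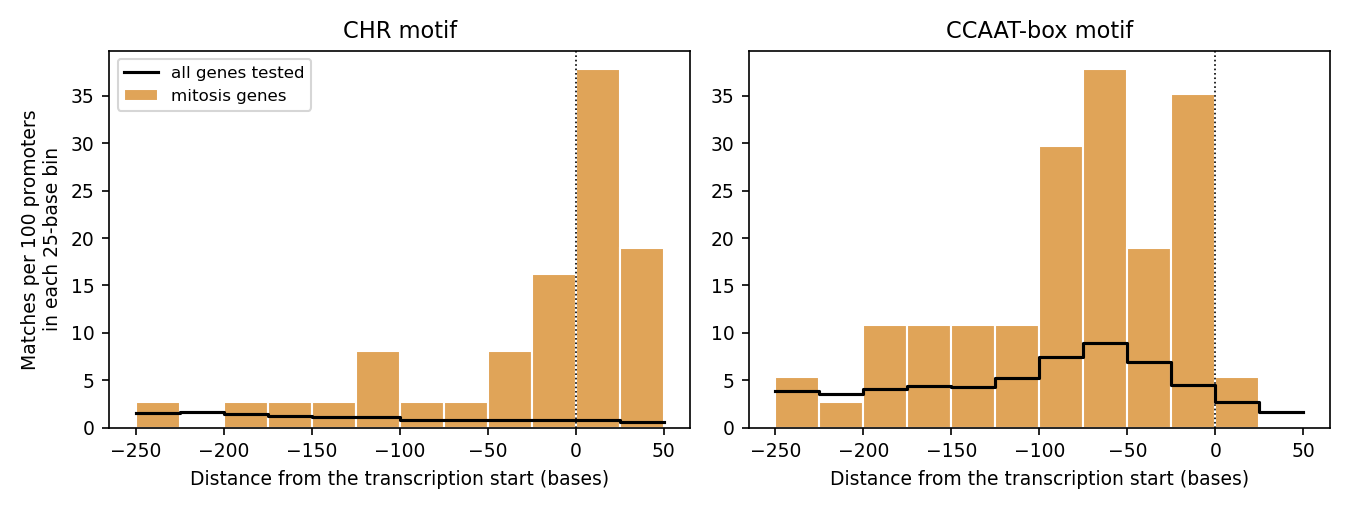
Matches to the CHR (left) and to the CCAAT box (right) per 100 promoters in bins of 25 bases, against the distance from the transcription start in bases. Bars are the 37 promoters of 35 mitosis genes, and the black line is the 13157 promoters of tested genes. The CHR matches of the mitosis genes gather around the start, at a median of 2 bases after it, and the CCAAT boxes at a median of -67.5 bases.

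The promoters of 6 genes are printed as examples, from 120 bases before to 20 after the start on the gene's own strand. CHR, TTCGAA and CCAAT-box letters are in capitals. These promoters belong to the central kinase, both B cyclins, an activator and an enzyme of the APC/C, and the most abundant member. Each held 2 or 3 CCAAT boxes in this window, and all but Ccnb1 a CHR within 50 bases of the start. The positions in GRCm38.p6 are chr10:69352893-69353032 on the minus strand for Cdk1, chr13:100786467-100786606 on the minus strand for Ccnb1 and chr9:70421535-70421674 on the minus strand for Ccnb2. They are chr4:118437324-118437463 on the minus strand for Cdc20, chr2:164769809-164769948 on the plus strand for Ube2c and chr11:99024170-99024309 on the minus strand for Top2a.
Cdk1: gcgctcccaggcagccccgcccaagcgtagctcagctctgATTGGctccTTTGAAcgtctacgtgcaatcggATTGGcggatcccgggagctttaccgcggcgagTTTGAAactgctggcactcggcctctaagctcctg
Ccnb1: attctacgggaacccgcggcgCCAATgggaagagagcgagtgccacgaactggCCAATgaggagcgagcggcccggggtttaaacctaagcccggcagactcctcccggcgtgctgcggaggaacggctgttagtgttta
Ccnb2: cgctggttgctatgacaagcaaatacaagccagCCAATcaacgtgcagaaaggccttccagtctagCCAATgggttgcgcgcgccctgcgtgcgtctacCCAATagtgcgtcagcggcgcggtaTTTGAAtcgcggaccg
Cdc20: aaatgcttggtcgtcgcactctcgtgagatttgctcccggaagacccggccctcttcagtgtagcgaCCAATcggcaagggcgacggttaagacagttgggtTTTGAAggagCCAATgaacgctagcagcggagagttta
Ube2c: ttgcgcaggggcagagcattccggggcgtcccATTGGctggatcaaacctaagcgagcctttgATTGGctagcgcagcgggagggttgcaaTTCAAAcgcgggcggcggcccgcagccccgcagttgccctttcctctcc
Top2a: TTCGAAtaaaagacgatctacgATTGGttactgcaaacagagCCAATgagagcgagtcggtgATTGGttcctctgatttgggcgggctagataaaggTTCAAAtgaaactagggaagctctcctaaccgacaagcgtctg

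None of the 40 mitosis genes passed the test of mutant against control ventricles. By edgeR's quasi-likelihood method, with Benjamini-Hochberg adjusted p over all 14691 genes tested, 0 of the 40 lay under 0.05, against 1.36% of all tested genes (200 genes). That background divides into 0.463% higher and 0.899% lower in the mutants. The count was also 0 at an unadjusted p under 0.05, which 17.6% of all tested genes reached, by DESeq2, which called 5.46% of the genes it gave an adjusted p, and by limma-voom, which called 0.776%. The adjusted p of the members ran from 0.341 for Ect2 to 0.986 for Kif15. Of the 40, 27 log2 fold changes of mutant over control were positive and 13 negative, between -0.16 for Cdk1 and 0.18 for Ccna2, with a median of 0.06 beside -0.0080 over all tested genes. Every 95% interval of these fold changes, taken gene by gene without adjustment, lay within a 1.5-fold change in either direction. These intervals assume that mutants and controls vary equally, which 2 mutant libraries cannot check. The lowest bound of an interval was 0.695-fold, for Cdk1, and the highest 1.40-fold, for Kif20b. The authors' deposited table lists 668 significant genes, where the count table holds 23337 gene symbols. It lists 0 of the 40.

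**Figure D2:**
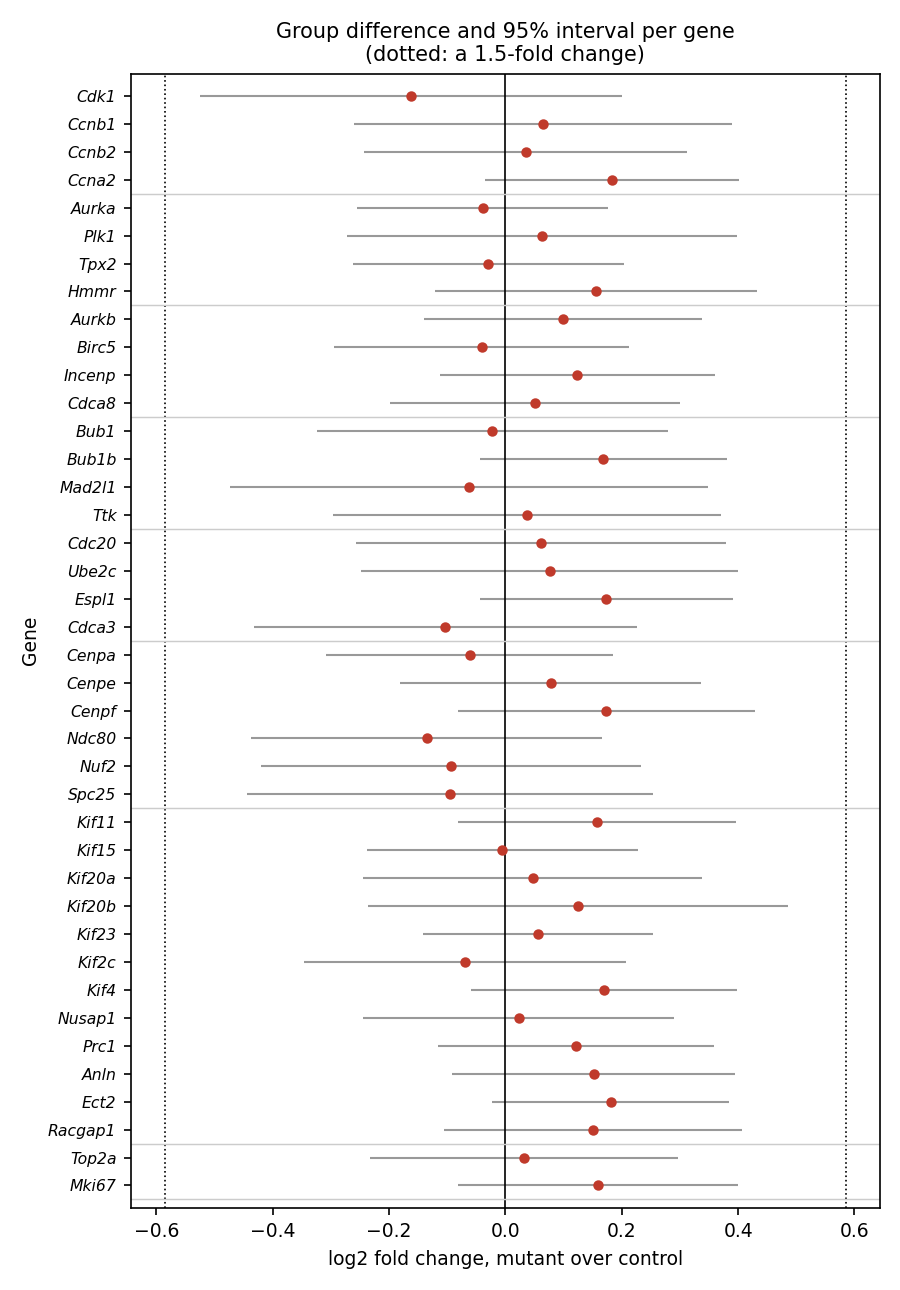
The log2 fold change of mutant over control on the horizontal axis for each of the 40 genes, grouped by role (grey lines), with its 95% interval from the edgeR fit (2 mutant and 5 control libraries). All intervals include 0 and all lie between the dotted lines that mark a 1.5-fold change.

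By their mean log2 level of these genes, the 2 mutant libraries stood at opposite ends of the 7. A score was formed for each library as the mean over the 40 genes of log2 CPM, where CPM is the count scaled to a common library size. This mitosis score stood at 7.102 for mutant replicate 1 and 6.726 for mutant replicate 2, against 6.827, 6.904, 6.958, 6.922 and 6.744 in control replicates 1 to 5. Mutant replicate 1 was thus the highest of all libraries and mutant replicate 2 the lowest, just under control replicate 5. The group means were 6.914 ± 0.266 (SD, n = 2) in the mutants and 6.871 ± 0.086 (SD, n = 5) in the controls, a difference of 0.04 that was smaller than the SD of either group. No p is given for this score, because the genes form a chosen list. Summed over the list, the genes took 6628 and 5171 CPM in mutant replicates 1 and 2, and 5137 to 6028 CPM in the controls. By this sum control replicate 5 was the lowest library, and mutant replicate 2 lay inside the control range.

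The same order held gene by gene. All 40 genes were higher in mutant replicate 1 than in mutant replicate 2, against 49.5% of all tested genes. The median log2 difference between these 2 libraries was 0.38, or 1.30-fold, with the smallest at 0.03 for Cenpf and the largest at 0.61 for Cdca3. In 37 of the 40 genes that difference exceeded the group difference. Mutant replicate 1 had the highest value of the 7 libraries for 32 genes (80.0%), against 11.9% of all tested genes. It was also highest for 60.2% of the other mitotic and 60.0% of the S phase genes. Mutant replicate 2 had the lowest for 17 (42.5%) and control replicate 5 for 16, against 22.6% and 16.6% of all tested genes. Both mutant libraries lay outside the control range on the same side for 0 of the 40 genes, against 20.2% of all tested genes (9.73% above and 10.4% below). For 12 of the 40, mutant replicate 1 lay above all controls and mutant replicate 2 below all of them, against 1.78% of all tested genes. This layout held for 10.8% of the other mitotic and 9.09% of the S phase genes. The reverse arrangement, seen in 2.46% of tested genes, occurred in 0 of the 40.

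The direction of the group difference therefore rested on which mutant library was used. Without mutant replicate 1, only 7 of the 40 log2 fold changes were positive, with a list median of -0.16. Without mutant replicate 2, all 40 were positive and the median was 0.24. In neither case did any of the 40 pass the test, with adjusted p of at least 0.112 and 0.301 (edgeR quasi-likelihood, Benjamini-Hochberg), and the lone mutant library was then assumed to vary as the controls do.

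**Figure D3:**
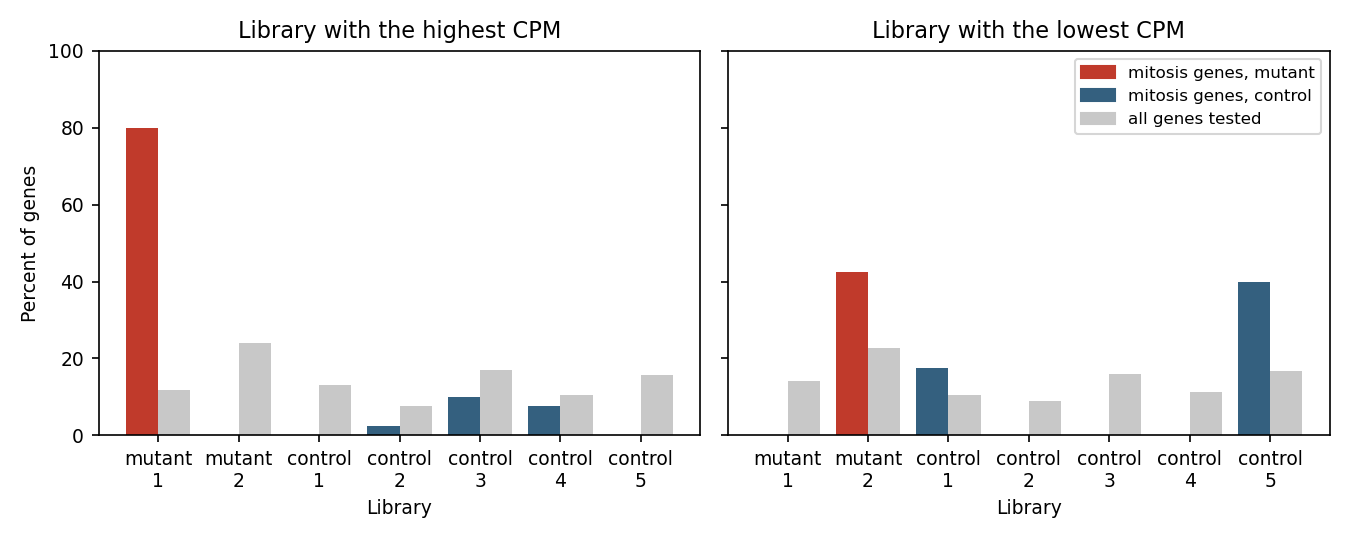
Percent of genes whose highest (left) or lowest (right) CPM fell in each library, for the 40 mitosis genes (red for mutant, blue for control libraries) and for all tested genes (grey). Mutant replicate 1 held the highest value for 80.0% of the mitosis genes, while the lowest lay in mutant replicate 2 for 17 of the 40 and in control replicate 5 for 16.

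**Figure D4:**
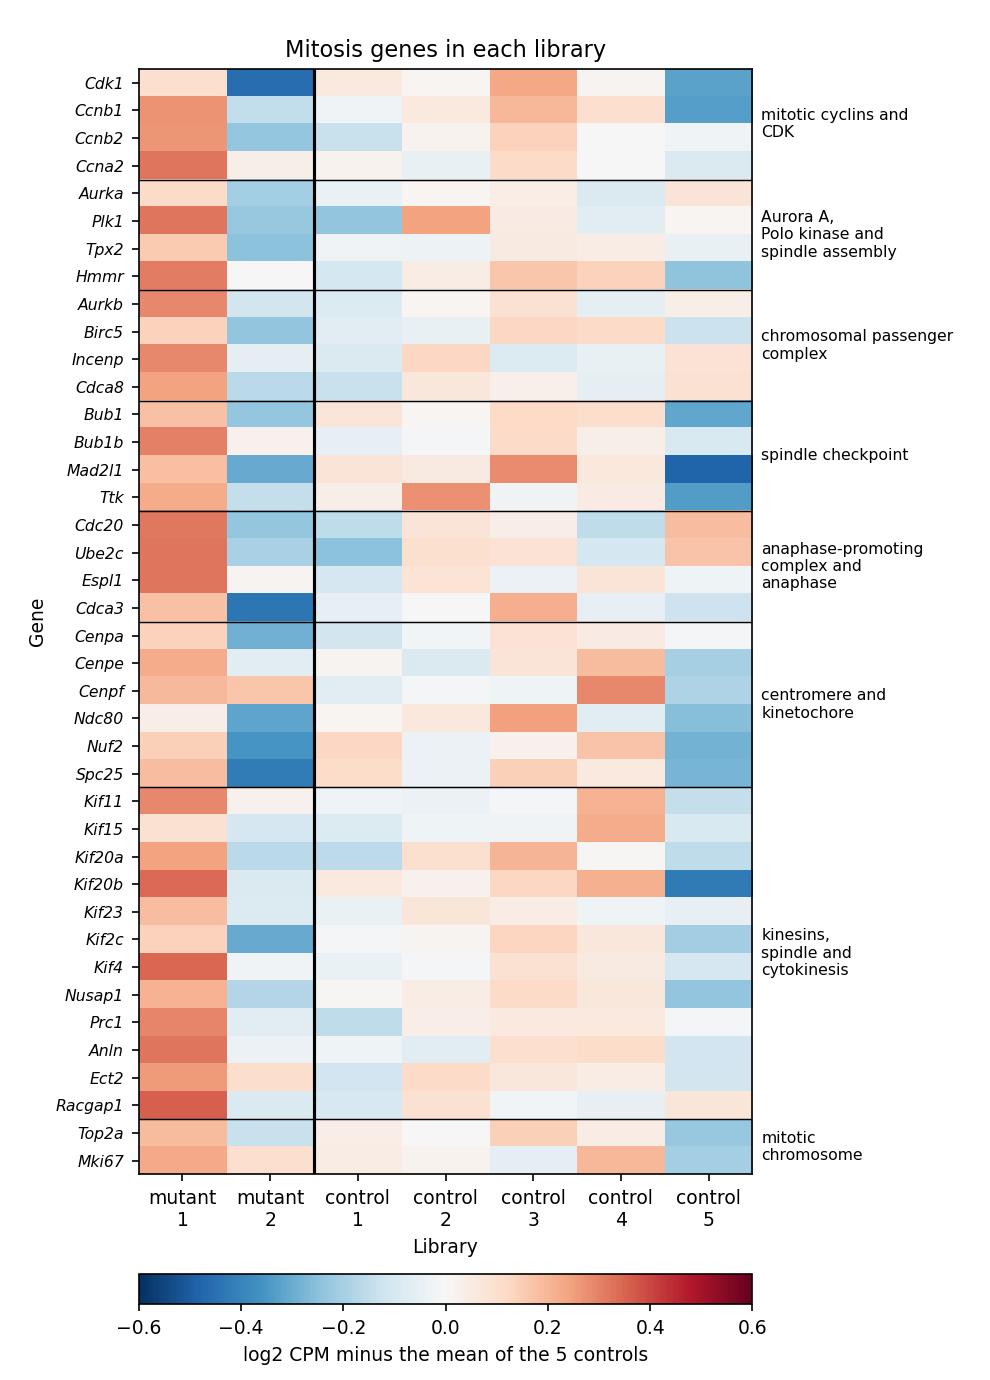
Log2 CPM of each of the 40 genes (rows, by role) in each library (columns, mutant left of the black line), as the difference from the mean of the 5 controls. Mutant replicate 1 is above the control mean for all 40 genes, and mutant replicate 2 below it for 32.

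Among the cyclins and their kinase, Cdk1, the kinase that starts mitosis, was at 277 and 189 CPM in mutant replicates 1 and 2, against 269, 261, 304, 261 and 207 CPM in control replicates 1 to 5. Mutant replicate 2 was below every control while mutant replicate 1 was inside their range. The log2 fold change was -0.16 (95% interval -0.52 to 0.20). Ccnb1, the cyclin B1 partner of CDK1, was at 266 and 199 CPM in the mutants, against 217, 229.7, 253, 236 and 175 CPM in the controls, with mutant replicate 1 above all controls and mutant replicate 2 among them. Ccna2, cyclin A2 of S phase and G2, had the largest positive log2 fold change of the list, 0.18 (-0.03 to 0.40). It was at 383 and 314 CPM in the mutants and at 311, 298, 332, 306 and 288 CPM in the controls, so that mutant replicate 2 overlapped the controls. Ccnb2, cyclin B2, was one of the 12 genes with the mutants on either side of all controls, at 114 and 80.6 CPM against 86.2 to 104 CPM.

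The genes of Aurora A, Polo kinase and spindle assembly had a median log2 fold change of 0.02 over 4 genes. Plk1, the Polo-like kinase of centrosome maturation and cytokinesis, was at 137 and 93.6 CPM in the mutants and at 93.1, 129.7, 113, 105 and 111 CPM in the controls. Mutant replicate 1 was above all controls, and mutant replicate 2 just above the lowest of them. Tpx2, which activates Aurora A on spindle microtubules, was at 174 and 131 CPM in the mutants and at 153, 152, 162, 160.4 and 151 CPM in the controls. The controls all lay between the 2 mutants, within a narrower range. Aurka, Aurora A itself, had the same layout at 87.0 and 69.8 CPM against 75.7 to 84.8 CPM. Hmmr, a microtubule-associated receptor of the spindle, had a log2 fold change of 0.16 (-0.12 to 0.43).

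The chromosomal passenger complex corrects faulty attachments of chromosomes and then moves to the midzone. Aurkb, its kinase Aurora B, was at 62.0 and 47.1 CPM in the mutants and at 48.0, 51.2, 54.2, 49.0 and 52.0 CPM in the controls. Birc5, which encodes survivin, was at 132 and 101 CPM in the mutants and at 114, 116, 130.5, 129.8 and 109.6 CPM in the controls. In both genes, as in Cdca8, which encodes borealin, the mutants lay on either side of all controls. Incenp, the scaffold of the complex, had a log2 fold change of 0.12 (-0.11 to 0.36), with mutant replicate 2 inside the control range.

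The 4 genes of the spindle checkpoint were lowest of all libraries in control replicate 5. Bub1b, which encodes the checkpoint kinase-like protein BUBR1, was at 202 and 167 CPM in the mutants, against 158, 163, 178, 168 and 154 CPM in the controls. Its log2 fold change was 0.17 (-0.04 to 0.38). Mad2l1, the inhibitor of CDC20, had the widest interval of the list, -0.47 to 0.35 around -0.06, and was at 75.3 CPM in control replicate 5 against 109 to 128 CPM in the other controls. The kinases Bub1 and Ttk had log2 fold changes of -0.02 and 0.04.

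Of the genes that carry out anaphase, Ube2c, the E2 enzyme that charges the APC/C, was at 182 and 127 CPM in the mutants and at 123, 156, 155, 136 and 164 CPM in the controls. Espl1, the protease separase that cuts cohesin, was at 67.3 and 54.5 CPM in the mutants and at 50.3, 57.1, 52.7, 56.9 and 52.9 CPM in the controls, a log2 fold change of 0.17 (-0.04 to 0.39). Mutant replicate 2 was inside the control range for both. Cdca3, a trigger of mitotic entry that is itself destroyed through the APC/C, was at 136 and 89.2 CPM in the mutants, against 116, 120.4, 140.2, 117 and 110.5 CPM in the controls, below all of which lay mutant replicate 2. Its log2 fold change was -0.10 (-0.43 to 0.23). Cdc20, the activator of the APC/C, was at 142 and 96.9 CPM in the mutants, outside the control range of 102 to 129.6 CPM on both sides.

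The centromere and kinetochore genes were the 1 role group of 8 with a negative median log2 fold change, -0.08 over 6 genes. Ndc80, of the complex that grips microtubules, was at 57.3 and 44.8 CPM in the mutants and at 56.1, 58.2, 66.0, 53.1 and 46.7 CPM in the controls, lowest in mutant replicate 2. The other 2 subunits of that complex on the list, Nuf2 and Spc25, were likewise lowest in mutant replicate 2, and their log2 fold changes were -0.09 (-0.42 to 0.23) and -0.10 (-0.44 to 0.25). Cenpf, a large protein of the outer kinetochore and nuclear matrix, was the gene on which the mutants differed least. It was at 149 and 146 CPM in the mutants and at 124, 129, 128, 159 and 115 CPM in the controls, both mutants inside the control range. Cenpa, the histone of the centromere, and Cenpe, a kinetochore motor, had log2 fold changes of -0.06 and 0.08.

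Kinesins, spindle proteins and cytokinesis genes formed the largest role group, with 10 of 12 positive and a median log2 fold change of 0.12. Kif20a, a kinesin of the midzone, was at 251 and 189 CPM in the mutants and at 189.8, 227, 244, 213 and 191 CPM in the controls, mutant replicate 2 being just under the lowest control. Ect2, the exchange factor that starts the contractile ring, was at 112 and 101 CPM in the mutants and at 86.6, 101, 98.2, 96.8 and 86.9 CPM in the controls. It had the lowest p of the 40 genes, 0.0764 before and 0.341 after adjustment by the edgeR test, and its log2 fold change was 0.18 (-0.02 to 0.38). Mutant replicate 2 lay just below control replicate 2, so the groups overlapped. Racgap1 and Kif23, the 2 parts of centralspindlin, had log2 fold changes of 0.15 and 0.06, and the ring scaffold Anln 0.15. The bundling protein Prc1 and the spindle motor Kif11 were at 0.12 and 0.16. Of the other kinesins, Kif4 was at 0.17, Kif20b at 0.13 (-0.24 to 0.49), Kif15 at -0.01 and the microtubule depolymerase Kif2c at -0.07, and the spindle protein Nusap1 was at 0.02.

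Top2a and Mki67 encode proteins that untangle and coat mitotic chromosomes, and both are the usual tissue markers of cycling cells. Top2a, topoisomerase II alpha, was at 792 and 632 CPM in the mutants and at 714, 695, 765, 716 and 593 CPM in the controls. Its log2 fold change was 0.03 (-0.23 to 0.30). Mki67, which encodes the Ki-67 antigen, was at 388 and 356 CPM in the mutants and at 342, 336, 318, 380.4 and 287 CPM in the controls, a log2 fold change of 0.16 (-0.08 to 0.40). Mutant replicate 1 was the highest library for both genes and control replicate 5 the lowest.

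The low score of control replicate 5 was not shared evenly by the 40 genes. This library was the lowest control for 26 of them (65.0%), against 28.5% of all tested genes. Relative to the mean of the 4 other controls, its log2 differences ran from -0.60 for Mad2l1 to 0.23 for Cdc20. Kif20b, Ttk, Ccnb1 and Cdk1 were also far below, at -0.53, -0.42, -0.41 and -0.40. Yet it was the highest control for Cdc20, Ube2c, Cdca8 and Aurka. In mutant replicate 2, by contrast, Cdc20, Cdca8 and Aurka were at their lowest of the 7 libraries.

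Other genes of the cell cycle were set beside the list. Of 93 further mitotic genes, such as condensins, inner kinetochore proteins and regulators of mitotic transcription, 0 were called by edgeR, DESeq2 or limma-voom, 8 (8.6%) had an unadjusted edgeR p under 0.05, against 17.6% of all tested genes, and the median log2 fold change was 0.07. They too were mostly higher in mutant replicate 1 than in mutant replicate 2, in 86 of 93 (92.5%). In 10 of these 93 (10.8%), both mutant libraries were outside the control range on the same side, a share below the 20.2% of all tested genes. The 3 of lowest p were Foxm1, Arhgap11a and Zwilch. Foxm1, a transcription factor that activates many mitosis genes, was at 80.7 and 72.7 CPM in the mutants and at 59.9, 65.9, 56.3, 65.6 and 65.1 CPM in the controls, so that both mutants lay above all controls. Its log2 fold change was 0.29 (SE 0.09) at an adjusted edgeR p of 0.136. Arhgap11a and Zwilch, of which the second acts at the outer kinetochore, lay at 0.27 (SE 0.09) and 0.28 (SE 0.10) on the log2 scale, with edgeR adjusted p of 0.144 and 0.177.

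Genes of S phase were also ordered alike in the mutants. The 55 genes were mostly of DNA replication, with others such as E2f1, Ccne1, Slbp and Uhrf1. Of the 55, 51 (92.7%) were higher in mutant replicate 1 than in mutant replicate 2. Their score was 6.249 and 6.021 in mutant replicates 1 and 2, against 5.968 to 6.158 in the controls. None was called by edgeR or limma-voom, and 8 (14.5%) had an unadjusted edgeR p under 0.05, against 17.6% of all tested genes. DESeq2 called 2 of the 55, Rrm2 and Clspn, where it called 5.46% of all genes. Rrm2, a subunit of ribonucleotide reductase, was at 322 and 275 CPM in the mutants and at 233, 245, 244, 236 and 224 CPM in the controls, and Clspn, the fork protein claspin, at 54.0 and 50.6 CPM against 40.7 to 44.2 CPM. Both mutants lay above all controls for these 2 genes, which were among 9 of the 55 (16.4%) with that layout, against 9.73% of all tested genes. Their edgeR log2 fold changes were 0.34 (SE 0.09) for Rrm2 and 0.31 (SE 0.08) for Clspn, with edgeR adjusted p of 0.0899 and 0.0915. The third of lowest p, E2f1, a transcription factor of the G1 to S transition, had a log2 fold change of 0.28 (SE 0.09) at 0.147.

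Genes of G1 were not ordered in this way. The 18 tested were D cyclins, CDK kinases, CDK inhibitors, pocket proteins and the factors E2f3, E2f4 and E2f5. Of the 18, 9 (50.0%) were higher in mutant replicate 1 than in mutant replicate 2. The G1 score was 5.655 and 5.665 in the mutants, against 5.515 to 5.696 in the controls. None was called by edgeR, DESeq2 or limma-voom, with 2 (11.1%) at an unadjusted edgeR p under 0.05, against 17.6% of all tested genes. The 3 of lowest p were Cdk6, Rbl1 and Cdkn1b, at 0.65 (SE 0.21), 0.26 (SE 0.09) and 0.16 (SE 0.08) on the log2 fold change scale, with edgeR adjusted p of 0.150, 0.171 and 0.310.

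**Figure D5:**
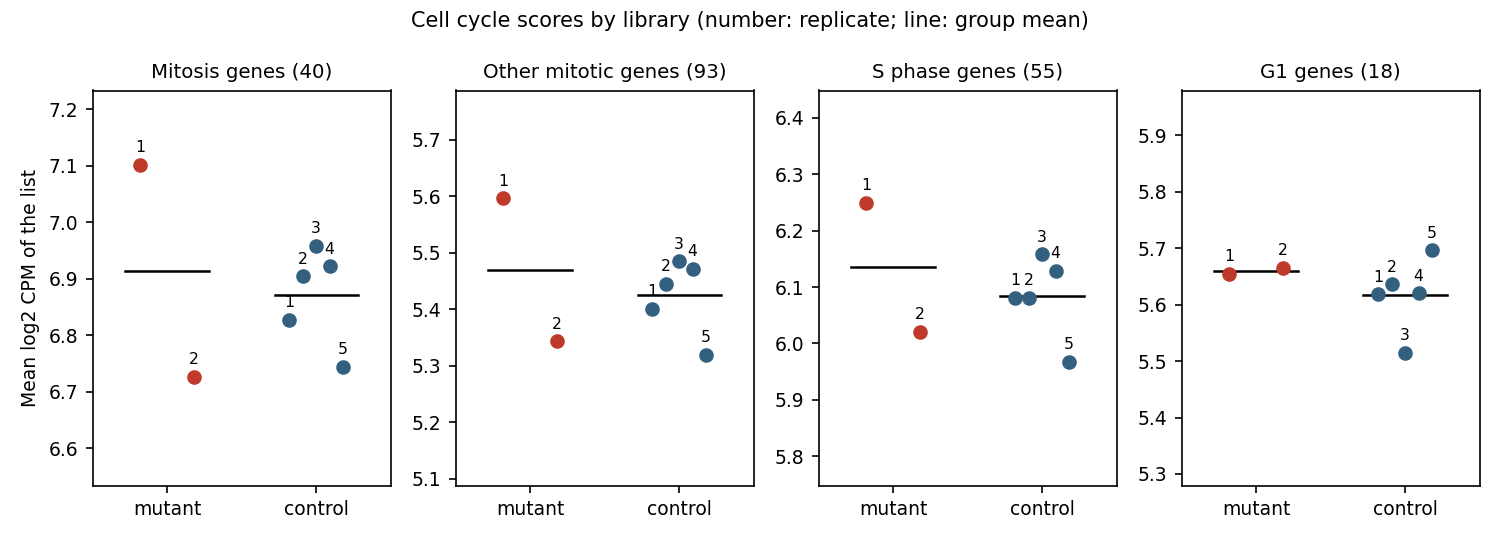
Score of 4 cell cycle lists (mean log2 CPM of the list) in each library, mutant left of control, with the replicate number at each point and a line at the group mean; all panels span the same range of log2 units. Mutant replicate 1 is the highest library for the mitosis, other mitotic and S phase lists, and mutant replicate 1 minus mutant replicate 2 is -0.010 for G1.

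Markers of the cell types in the ventricle were measured in the same libraries. Calls are by edgeR at an adjusted p under 0.05, which 0.899% of all tested genes passed as lower in the mutants. The 9 cardiomyocyte markers, such as Tnnt2, Myh7 and Myl2, summed to 40830 and 44100 CPM in the mutants and to 36980 to 42120 CPM in the controls, and 1 of them, Myl7, was called lower. Of the 9, 6 log2 fold changes were positive and 3 negative. Both mutants were above all controls for Tnnt2, Myh7 and Myl3, and below all of them for Myl2 and Myl7. Cushion mesenchyme and fibroblast markers were lower in both mutants, with 6 of 8 called and sums of 1507 and 1513 CPM against 2495 to 4307 CPM. Macrophage markers were also lower, with 3 of 8 called and sums of 152 and 106 CPM against 175 to 233 CPM. The epicardial markers, of which Krt19 was called lower, summed to 392 and 277 CPM in mutant replicates 1 and 2, against 488, 514, 538, 468 and 355 CPM in the controls. The 8 endocardial and endothelial markers summed to 617 and 904 CPM in mutant replicates 1 and 2, against 794, 715, 751, 710.1 and 941 CPM in control replicates 1 to 5. Emcn went the other way in the mutants, at 81.0 and 74.5 CPM, and Egfl7 was nearly level at 65.8 and 66.5 CPM. Emcn and Egfl7 were highest in control replicates 4 and 1, at 90.1 and 89.8 CPM. The erythroid genes, with Hba-a1 and Hba-a2 counted once because their values are identical in every library, summed over 7 rows to 5171 and 5433 CPM against 4260 to 9558 CPM. Of 6 atrial markers, 4 were called lower, Myl7 again among them, and the sums of the 6 were 2064 and 2072 CPM against 2075 to 3486 CPM. Control replicate 5 and mutant replicate 2, the 2 libraries with the lowest mitosis score, thus had the lowest epicardial and the highest endothelial sums. Of the epicardial markers, Wt1, Upk3b, Upk1b, Lrrn4 and Msln were lowest in these 2 libraries. Tbx18, Krt19 and Aldh1a2 were instead lowest in the 2 mutants. Tbx18 was at 46.5 and 48.8 CPM in mutant replicates 1 and 2, against 74.2 CPM in control replicate 5. Of 10 erythroid genes listed, 8 were in the count table, and Hbb-bt and Hbb-bs were not. The part of cell type mixture in the mitosis score was not tested.

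Library totals were 20268208 and 22680280 counts in the mutants and 20385656 to 24440806 in the controls, and each of the 40 genes had between 817 and 16854 counts per library, so that counting error was small beside the spread between libraries. Tbx5 itself was at 93.9 and 114 CPM in the mutants and at 64.2 to 98.3 CPM in the controls (adjusted p 0.181, edgeR). A count over the whole gene does not check a deletion of part of it, so the groups rest on the labels. Xist, which is made from an inactive X, was at 378 and 513 CPM in the mutants, at 0.69 and 1.08 CPM in control replicates 1 and 3 and at 313 to 473 CPM in the other controls. Per kilobase of annotated exon (RPKM, GENCODE vM21), Top2a was the most abundant member at 136 ± 21.7 in the mutants and 133 ± 12.2 in the controls (SD, n = 2 and n = 5), followed in the controls by Ccnb1 and then Ccna2, which stood the other way round in the mutants and differed in both groups by less than the SD of Ccnb1. Ccnb1 was at 93.4 ± 18.9 in the mutants and 89.3 ± 11.8 in the controls, and Ccna2 at 96.1 ± 13.4 in the mutants and 84.6 ± 4.51 in the controls. Espl1 was the least abundant, at 9.07 ± 1.35 RPKM in the mutants and 8.04 ± 0.438 RPKM in the controls. The library kit does not mark strand, and 5 members share over 10% of their exon length with a gene on the opposite strand: Kif20a with Cdc23, Prc1 with Rccd1, Ube2c with Tnnc2, Kif4 with Pdzd11 and Ccna2 with Exosc9. Reads in those stretches cannot be assigned to either gene of a pair.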

How the data were processed

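Poly(A) RNA was sequenced as single-end reads with a TruSeq RNA kit, which does not mark strand, per the labels' protocols. The deposited table holds whole-number counts per gene and library. The submitters' processing notes name build mm10, featureCounts, TopHat2 (2.1.1), limma (3.30.13), edgeR (3.16.5) and R (3.3.2), with no roles stated. The annotation and the rule for multi-mapping reads are not given in these sources. For each gene it lists, the authors' deposited result table holds a log2 fold change with its p-value and adjusted value.

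The counts were tested with edgeR 4.0.16 under R 4.3.3. filterByExpr (minimum count 10, minimum total 15) kept 14691 genes, followed by TMM factors, glmQLFit with robust estimation and glmQLFTest with genotype as the only term. SE is the log2 fold change over the square root of F, and 95% intervals use the t distribution. A score averages log2 CPM (prior count 2) over a list. Chi-square per degree of freedom between libraries of 1 group ran from 10.5 to 33.6, so none repeats another. The fit was checked on simulated data. Values in every library are given for 17 members taken by a fixed rule: those called (0), the most abundant of each of 8 roles, the 3 largest changes each way, and 6 standard markers; other lists contribute their called genes or the 3 of lowest p. The members and lists were chosen with earlier results of these data known. Alternatives used DESeq2 1.42.0, limma-voom (limma 3.58.1), other scalings and filters, and left-out libraries. Exon lengths come from the GENCODE basic set and figures from Python 3.11.15 with matplotlib 3.10.9.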

Additional observations from a re-analysis of the deposited data

Results flagged for a closer look

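Among the 5 controls, a value was marked where its gap to the nearest other control exceeded 0.71 of the group's whole range (Dixon's test at 95%). Of 53 such groups tested, 3 were marked, where chance marks about 1 in 20. Bub1 was at 95.6 CPM in control replicate 5, below the other controls, with a gap of 0.717 of the range. The spindle checkpoint score (Bub1, Bub1b, Mad2l1, Ttk) was 6.286 in the same library, against 6.624 to 6.714 in the other controls, with a gap of 0.790 of the range. Kif15 was at 57.4 CPM in control replicate 4, above the other controls, with a gap of 0.789 of the range. The groups of mutants, with 2 libraries, could not be examined in this way.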

How the results depend on the processing

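The number of members called was 0 in all 19 alternative settings, and none of their 760 gene values passed its threshold. The number of all genes called was 200. It was 586 at an adjusted p of 0.1, 114 with limma-voom, 786 with DESeq2, 52 without both control replicate 5 and mutant replicate 2, 60 with Xist as a covariate, 66 among libraries that expressed Xist, and 12 to 275 with 1 library left out, the lowest without mutant replicate 2 (78 and 72 without control replicates 1 and 2). Of the S phase genes, 2 were called at the 0.1 threshold and 2 with DESeq2. With 1 library left out, the median log2 fold change ran from -0.16 to 0.24 for the members, -0.070 to 0.19 for the other mitotic genes and -0.053 to 0.17 for S phase, and the score difference from -0.14 to 0.24; the lowest of each came without mutant replicate 1 and the highest without mutant replicate 2. Without both control replicate 5 and mutant replicate 2, these were 0.19 for the members, 0.14 for S phase and 0.21 for the score. Under other scalings, filters and tests, the members' median stayed between 0.04 and 0.07.

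The replicate numbers 1 and 2 occur in both groups, but the labels tie no mutant to a control. Deviations from the group means correlated at 0.0775 for number 1 and 0.0117 for number 2 across tested genes. With 2 mutants, the deviations of one mirror those of the other, so these values are not separate checks. They cannot decide whether samples of the same number share a litter or a batch. With the replicate block on those 4 libraries, 632 genes were called, 0 of them members. The members' median was 0.08, and the log2 fold change of Tbx5 was 0.51 (adjusted p 0.0266, edgeR).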
